A study of Homo sapiens with 10 samples.

Results

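Keratins are the intermediate filament proteins of epithelial cells. A type I keratin pairs with a type II keratin, and filaments form from such pairs, so each cell type is known by the pairs it makes. In the prostate, luminal secretory cells are known for KRT8 and KRT18, and basal cells for KRT5, KRT14 and KRT15, while KRT17 is known from basal cells and from activated or wounded epithelium.

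The genes described are 10 keratins chosen as a list: KRT8, KRT18, KRT7, KRT19, KRT15, KRT17, KRT5, KRT10, KRT80 and KRT81. They were found by their symbol in the deposited expression table, and 9 of the 10 had a row among its 13527 features. KRT5 has no row and was not analysed here. The table holds only features with at least 1 CPM, a count scaled to library size, in at least 3 libraries, and each of the 9 keratins passed that filter.

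RNA-seq compared DU145 cells with SOX4 knockdown by a short hairpin RNA (shSOX4, 3 libraries) with DU145 cells carrying a scrambled control hairpin (shCon, 3 libraries). DU145 is an established human prostate cancer line, grown here in DMEM with fetal bovine serum and antibiotics, and both groups had no other treatment. The hairpin sequence, the number of hairpins or clones and separate cultures are not stated. The p-values thus weigh the group difference only against the spread among these libraries of a group, and that spread may be technical. SOX4 is an HMG-box transcription factor, and the series asks about its part in neuroendocrine differentiation.

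Libraries held 31189910 to 43361609 counts. Along the second principal component, with 15.7% of the variance, shCon 3 and shSOX4 1 stood apart from the other 4 libraries, so results are also given without both. SOX4 itself had 4.55, 6.44 and 6.01 CPM in shSOX4 libraries, against 12.9, 10.1 and 8.48 CPM in shCon libraries, a log2 fold change of -0.89 (edgeR adjusted p = 0.0111, SE 0.236) that did not pass without shCon 1 (-0.71, adjusted p = 0.0598, edgeR). Of 18 luminal prostate markers 11 had a row. KLK2, KLK3, KLK4, TMPRSS2, FOLH1, MSMB and TRPM8 had none, so the prostate label rests here on few defining genes.

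Promoter windows from RefSeq (GRCh38.p14, 250 bases before to 50 after the start used) were matched for 3 of the 10 keratins: KRT5, KRT8 and KRT10. Whether DU145 cells make these transcripts from the starts used was not tested. Those of KRT8, which rose, and KRT10, which did not pass the test, are shown because each holds the core letters of sites that SOX proteins bind. Capitals mark ACAAAG or ACAATG on either strand. The KRT8 window is chr12:52926420-52926719 and the KRT10 window chr17:40822565-40822864, both on the minus strand and both read 5′ to 3′.
KRT8: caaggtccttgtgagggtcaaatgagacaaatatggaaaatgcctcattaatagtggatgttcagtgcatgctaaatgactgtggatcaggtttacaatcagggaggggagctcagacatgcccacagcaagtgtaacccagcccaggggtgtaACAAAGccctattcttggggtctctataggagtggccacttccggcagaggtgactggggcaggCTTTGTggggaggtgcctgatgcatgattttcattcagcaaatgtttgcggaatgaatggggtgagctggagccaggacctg
KRT10: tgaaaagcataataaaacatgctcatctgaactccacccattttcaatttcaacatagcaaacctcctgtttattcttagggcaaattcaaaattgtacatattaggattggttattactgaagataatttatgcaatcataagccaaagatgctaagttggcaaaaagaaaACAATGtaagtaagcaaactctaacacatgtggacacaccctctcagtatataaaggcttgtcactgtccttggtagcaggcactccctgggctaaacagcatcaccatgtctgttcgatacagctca
KRT8 has 2 matches to ACAAAG, 1 on each strand, which begin 96 and 32 bases before the start. KRT10 has 1 match to ACAATG, 78 bases before the start, and KRT5 has no match in its window. Among all 35116 windows of this length 16.1% hold ACAAAG, 10.8% hold ACAATG and 24.5% hold either, so such a match is common and is a description only.

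In cells with less SOX4 the luminal pair rose together, and the basal-type keratins moved in opposite directions. KRT8 was 2.52-fold and KRT18 2.04-fold higher in shSOX4 than in shCon. KRT17 was 7.07-fold higher, the largest change of the 9, while KRT15 fell to 44.2% of its shCon level. KRT7, KRT19, KRT10, KRT80 and KRT81 did not pass the test. Of the 9 keratins 3 rose, where 17.0% of all features did, and 1 fell, where 15.8% of all features did, by edgeR's quasi-likelihood test with an adjusted p under 0.05. In either direction 4 of the 9 were called, against 32.8% of features. The median log2 fold change of the 9 was -0.02, against -0.01 over all features. In bulk libraries a change in the number of cells that make a keratin and a change in the amount per cell cannot be told apart.

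**Figure D1:**
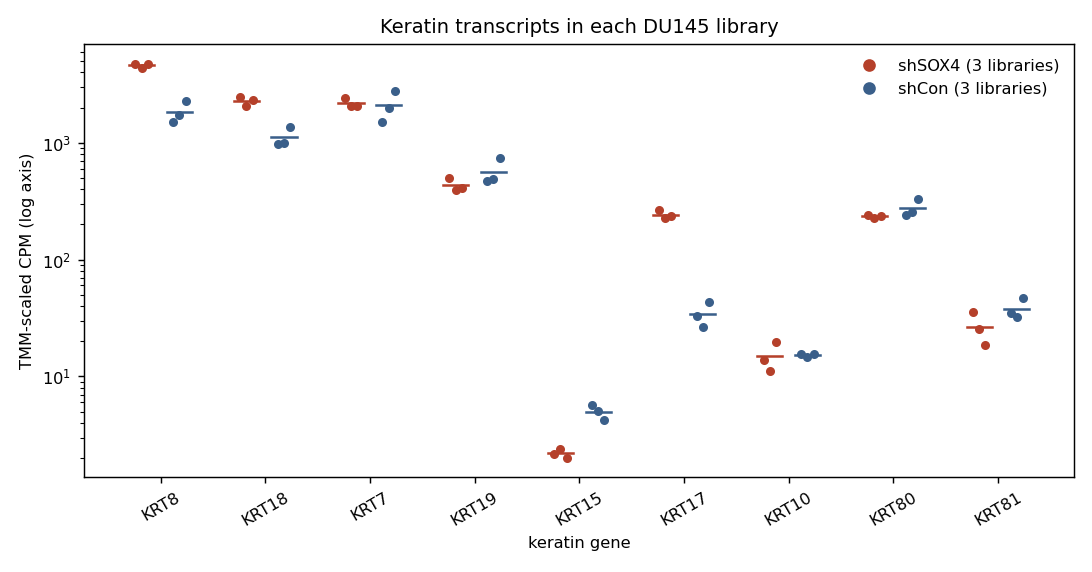
TMM-scaled CPM on a log axis for the 9 measured keratins; each point is 1 library, the horizontal bars are means of 3 libraries, with shSOX4 in red to the left of shCon in blue. KRT8, KRT18 and KRT17 lie higher and KRT15 lower in all 3 shSOX4 libraries, while the points of KRT7, KRT19, KRT10 and KRT81 overlap.

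KRT8 (ENSG00000170421), the type II partner of the luminal pair, had 4744, 4363 and 4701 CPM in shSOX4 1, 2 and 3, against 1489.8, 1730.3 and 2264 CPM in shCon 1, 2 and 3. The lowest shSOX4 library thus lay well above the highest shCon library, and the spread was wider in shCon. The means were 4603 ± 209 CPM in shSOX4 and 1828 ± 396 CPM in shCon (SD, n = 3 each). The log2 fold change was 1.33 (SE 0.161, 95% interval 0.99 to 1.68, adjusted p = 3.98e-05, edgeR). It ranged from 1.20 to 1.52 when 1 library was left out and was 1.497 without both shCon 3 and shSOX4 1. As a share of all counts, KRT8 transcripts took 0.452 to 0.465% in shSOX4 libraries and 0.157 to 0.210% in shCon libraries.

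KRT18 (ENSG00000111057), the type I partner of KRT8, had 2454, 2048 and 2321 CPM in the shSOX4 libraries, against 978, 995 and 1366 CPM in the shCon libraries. These groups did not overlap either, and shCon 3 was again the highest control. Its means were 2274 ± 207 CPM in shSOX4 and 1113 ± 219 CPM in shCon (SD, n = 3 each). The log2 fold change was 1.03 (SE 0.163, 95% interval 0.68 to 1.38, adjusted p = 0.000406, edgeR), and 1.15 without both shCon 3 and shSOX4 1.

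The partners did not rise by quite the same factor. The ratio of KRT8 to KRT18 CPM was 1.93 to 2.13 in shSOX4 libraries and 1.52 to 1.74 in shCon libraries, without overlap, although the intervals of the 2 log2 fold changes overlap. The genes are neighbours on chromosome 12, and in RefSeq's annotation (GRCh38.p14) their spans overlap. The library kit named in the labels, TruSeq V2, does not mark strand, so reads from the shared stretch cannot be assigned to one of them, and both genes have processed copies elsewhere in the genome.

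KRT7 (ENSG00000135480), a type II keratin of simple and ductal epithelia, had 2406, 2075 and 2072 CPM in shSOX4, against 1515.6, 1999.5 and 2791 CPM in shCon. The shSOX4 values fell inside the wide shCon range. Its log2 fold change was 0.06 (SE 0.190, 95% interval -0.35 to 0.46, adjusted p = 0.845, edgeR), and the sign turned without shCon 1 (-0.13) or without shSOX4 1 (-0.01).

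KRT19 (ENSG00000171345), a small type I keratin of simple epithelia without a tail domain, had 498, 391 and 412 CPM in shSOX4, against 469, 490.1 and 742 CPM in shCon. The groups overlapped, and the high control was once more shCon 3. The log2 fold change was -0.39 (SE 0.189, 95% interval -0.79 to 0.02, adjusted p = 0.128, edgeR). Without shCon 3 it was -0.14, and over all fits without 1 library it lay between -0.51 and -0.14. Simple-epithelial keratins thus did not all behave like the KRT8 and KRT18 pair: KRT8 over KRT7 in CPM was 1.97 to 2.27 in shSOX4 and 0.811 to 0.983 in shCon.

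KRT17 (ENSG00000128422), a type I keratin of basal and activated cells, had 264, 226 and 234 CPM in shSOX4, against 32.9, 26.4 and 43.3 CPM in shCon. Each shSOX4 library exceeded each shCon library severalfold. Its means were 242 ± 20.1 CPM in shSOX4 and 34.2 ± 8.50 CPM in shCon (SD, n = 3 each). The log2 fold change was 2.82 (SE 0.198, 95% interval 2.40 to 3.24, adjusted p = 2.36e-07, edgeR), with values of 2.67 to 3.03 when 1 library was left out. KRT17 has close relatives in KRT14, which has no row, and KRT16, so some reads may be divided among them.

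KRT15 (ENSG00000171346), a type I keratin known from basal and stem-like cells, was low in both groups. It had 74, 78 and 68 counts in shSOX4 and 261, 188 and 144 counts in shCon, which is 2.17, 2.41 and 2.02 CPM in shSOX4, against 5.72, 5.05 and 4.20 CPM in shCon. The groups did not overlap. Its log2 fold change was -1.18 (95% interval -1.75 to -0.61, SE 0.266, adjusted p = 0.00458, edgeR), and every fit that left out 1 library also called it, with adjusted p up to 0.0231 (edgeR). On log2(FPKM + 1), which understates changes of low genes, the value was -0.40 and did not pass (limma adjusted p = 0.0613). FPKM is the authors' value, scaled for gene length and depth. Unlike the CPM, the FPKM of KRT15 overlapped between the groups, with 0.883 in shSOX4 2 and 0.830 in shCon 3.

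Set against each basal type, the luminal pair gained on KRT15 and lost ground to KRT17. The mean log2 CPM of KRT8 and KRT18 less that of KRT15 was 10.5 ± 0.216 in shSOX4 and 8.15 ± 0.507 in shCon (SD, n = 3 each), 2.37 higher in shSOX4. Less KRT17 it was 3.74 ± 0.0657 in shSOX4 and 5.39 ± 0.221 in shCon, so it fell by 1.65. The groups did not overlap in either contrast. Less the mean of KRT15 and KRT17 the difference between groups was 0.36, with single libraries at 7.15, 6.999 and 7.24 in shSOX4 and 6.46, 6.83 and 7.03 in shCon, which overlap. Without shCon 1 that difference was 0.206. These contrasts hold gene length as a constant and are descriptions with no test, since the list was chosen with results of these data known. Between both basal types, KRT17 over KRT15 was 93.7 to 122 in shSOX4 and 5.23 to 10.3 in shCon (ratio of CPM).

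**Figure D2:**
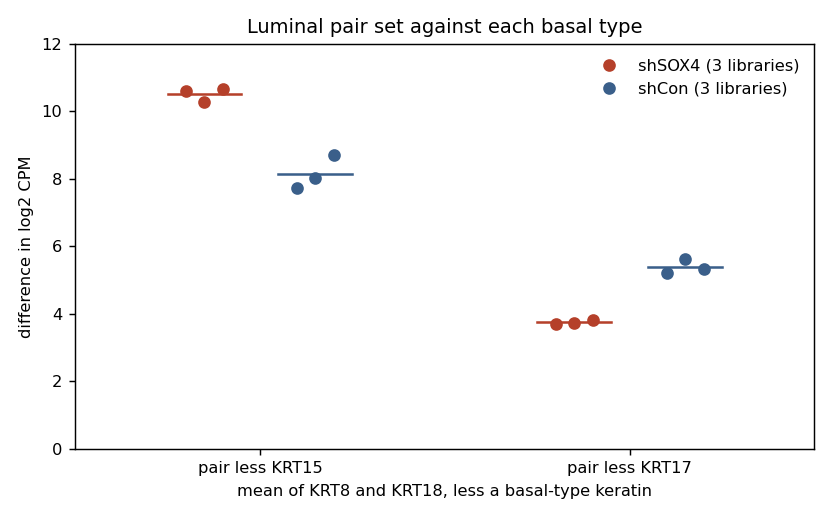
The mean log2 CPM of KRT8 and KRT18 less the log2 CPM of KRT15 (left) or KRT17 (right), 1 point per library with means as bars, shSOX4 in red left of shCon in blue. The pair lies farther above KRT15 in shSOX4 (10.5 against 8.15 in shCon) and less far above KRT17 (3.74 against 5.39).

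KRT10 (ENSG00000186395), a type I keratin of differentiating suprabasal epidermis, had 13.8, 11.1 and 19.8 CPM in shSOX4, against 15.4, 14.6 and 15.5 CPM in shCon. The controls lay close together and the shSOX4 libraries on both sides of them. Its log2 fold change was -0.02 (SE 0.222, 95% interval -0.50 to 0.45, adjusted p = 0.944, edgeR). Its measurement is uncertain. The ratio of deposited count to deposited FPKM, relative to its median over genes in each library, varied 2.89-fold between libraries for KRT10. It varied 1.67-fold for KRT15 and at most 1.03-fold for the other 7. Among 11552 features with at least 50 counts in every library, it varied at most 1.1-fold in 67.0%. KRT10-AS1, an antisense gene named here after its values were seen, had 38.0, 38.7 and 46.1 CPM in shSOX4, against 27.3, 31.9 and 30.2 CPM in shCon (log2 fold change 0.46, adjusted p = 0.0592, edgeR; 0.0283 by DESeq2), and without known strand its reads cannot be told apart from those of KRT10 where they overlap.

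KRT80 (ENSG00000167767), a type II keratin of many epithelia, had 242.3, 225.6 and 235.2 CPM in shSOX4, against 242.6, 254.5 and 329.7 CPM in shCon. The groups missed each other only narrowly, at shSOX4 1 and shCon 1. The log2 fold change was -0.23 (SE 0.162, 95% interval -0.58 to 0.11, adjusted p = 0.281, edgeR), and without shCon 3 it was -0.0825. Counting by non-overlap alone, 3 of the 9 keratins lay wholly higher in shSOX4, as did 23.1% of all features, and 2 of the 9 wholly lower, KRT15 and KRT80, as did 23.9% of all features (47.0% in either direction).

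KRT81 (ENSG00000205426), a type II hair keratin, had 35.3, 25.3 and 18.4 CPM in shSOX4, against 34.6, 32.5 and 47.2 CPM in shCon. Only shSOX4 1 reached into the shCon range. The log2 fold change was -0.53 (SE 0.237, 95% interval -1.04 to -0.03, adjusted p = 0.0974, edgeR). Without shSOX4 1 it was -0.79 and passed (adjusted p = 0.00963, edgeR), and without both shCon 3 and shSOX4 1 it was -0.62 and passed (adjusted p = 0.00865, edgeR). Without shSOX4 3 it was -0.32 and without shCon 3 -0.35, and neither passed. The annotated span of KRT81 overlaps that of KRT86, another hair keratin gene of similar sequence, so their reads may be divided.

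**Figure D3:**
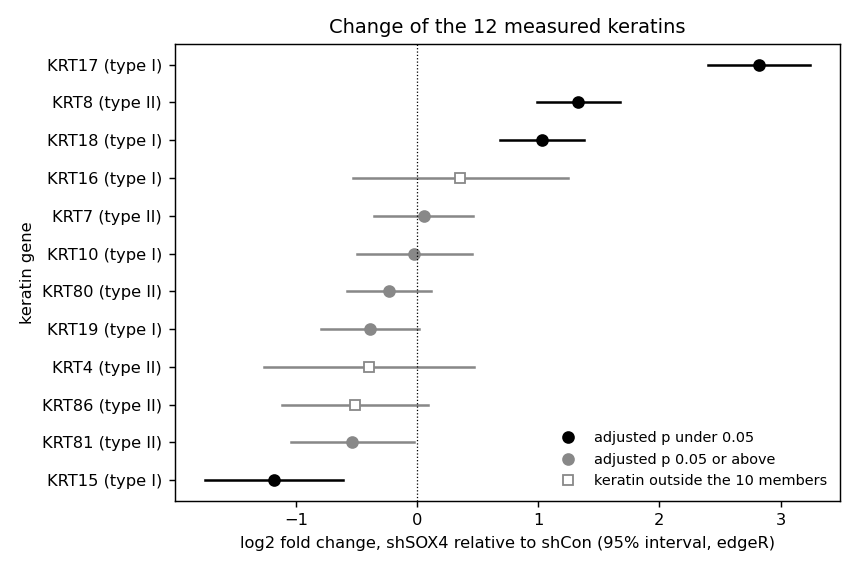
Log2 fold change of shSOX4 relative to shCon with its 95% interval for the 12 keratins with a row, in order of size; black marks an adjusted p under 0.05 (edgeR), open squares keratins outside the list of 10. KRT17 (2.82), KRT8 (1.33) and KRT18 (1.03) lie to the right of 0 and KRT15 (-1.18) to the left.

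Of the 54 human type I and type II keratins listed, 12 had a row, 6 of each type. The 3 outside the list of 10 were all low, and none passed. KRT16, a type I keratin induced in stressed epidermis, averaged 1.63 ± 0.802 CPM in shSOX4 and 1.28 ± 0.222 CPM in shCon (SD, n = 3 each; log2 fold change 0.36, adjusted p = 0.534, edgeR). KRT4, a type II keratin of mucosal epithelium, averaged 1.64 ± 0.868 CPM in shSOX4 and 2.16 ± 0.305 CPM in shCon (-0.39, adjusted p = 0.478, edgeR). KRT86 averaged 2.94 ± 0.493 CPM in shSOX4 and 4.204 ± 1.007 CPM in shCon (-0.51, adjusted p = 0.178, edgeR).

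Levels of different genes were compared in FPKM. In every shSOX4 library KRT8 led the 12 keratins, followed by KRT18 and KRT7, and in every shCon library KRT7 led, followed by KRT8 and KRT18. In shSOX4 KRT8 averaged 2333 ± 29.8, KRT18 1384 ± 88.7 and KRT7 1165 ± 89.6 FPKM (SD, n = 3), and each lay above the next in all libraries. In shCon KRT7 averaged 1102 ± 270.1, KRT8 903 ± 146 and KRT18 669.7 ± 91.6 FPKM (SD, n = 3), where the ranges of KRT7 and KRT8, and of KRT8 and KRT18, overlapped. KRT19 held place 4 in all 6 libraries, with 292 ± 32.4 FPKM in shSOX4 and 376 ± 75.4 FPKM in shCon.

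Further down, KRT17 held place 5 in shSOX4 with 148 ± 9.15 FPKM, above KRT80 (56.7 ± 0.935 FPKM) in all libraries, whereas in shCon KRT80 held place 5 with 65.9 ± 6.99 FPKM and KRT17 had 20.6 ± 4.01 FPKM. KRT17, KRT10 and KRT81 overlapped in shCon, and KRT10 and KRT81 did in shSOX4. KRT86 held place 9 in all 6 libraries, and KRT15, KRT16 and KRT4 filled the last places, with means of 0.595 to 0.954 FPKM in shSOX4 and 0.770 to 1.12 FPKM in shCon. Among all features KRT8 ranked 36 by mean FPKM in shSOX4 and 101 in shCon, and KRT17 ranked 655 in shSOX4 and 3334 in shCon.

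Sums over the 12 keratins show how the makeup of each type differed. Type II keratins summed to 3479.7 to 3698 FPKM in shSOX4 libraries and 1691 to 2537 FPKM in shCon libraries, and type I keratins to 1721 to 1970.3 FPKM in shSOX4 and 978 to 1284 FPKM in shCon. Both sums were higher in every shSOX4 library. Their ratio was 1.88 to 2.05 in shSOX4 and 1.73 to 2.05 in shCon, which overlap. The luminal pair made up 67.6 to 70.0% of all keratin FPKM in shSOX4 and 48.0 to 51.9% in shCon.

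Within type II, KRT8 made up 65.4 ± 1.59% in shSOX4 and 43.4 ± 2.00% in shCon, and KRT7 32.6 ± 1.50% in shSOX4 and 52.4 ± 2.48% in shCon (SD, n = 3 each). Within type I, KRT18 made up 75.2 ± 0.564% in shSOX4 and 61.7 ± 1.23% in shCon, KRT19 15.8 ± 0.949% in shSOX4 and 34.5 ± 1.39% in shCon, and KRT17 8.04 ± 0.344% in shSOX4 and 1.90 ± 0.242% in shCon. None of these shares overlapped between the groups. They are parts of a whole, so a higher share of one keratin lowers the others.

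**Figure D4:**
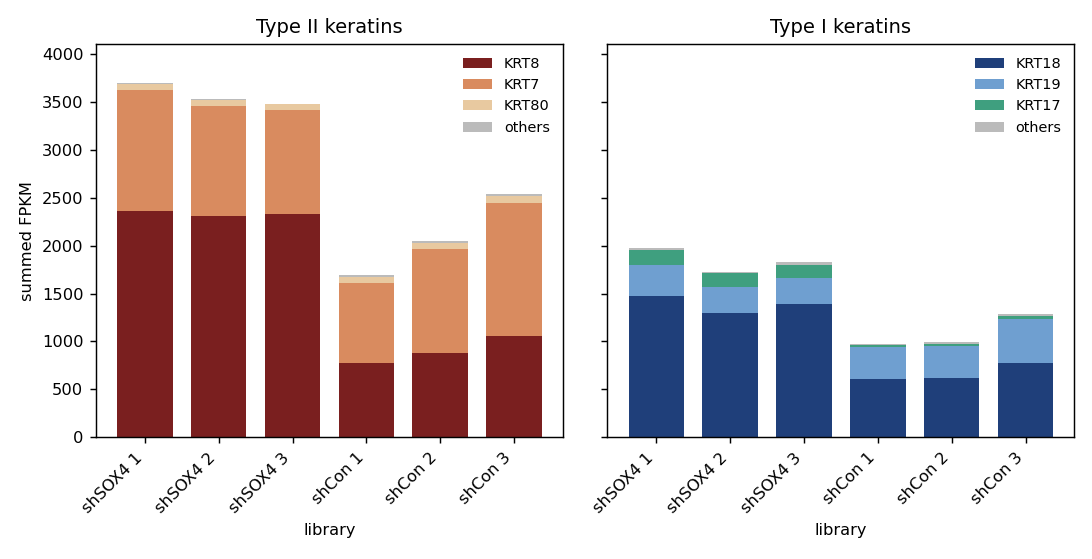
Summed FPKM of type II (left) and type I (right) keratins in each library, shSOX4 left of shCon, stacked by gene with the smaller members as others. Both stacks are taller in the shSOX4 libraries, mostly through KRT8 and KRT18, while the KRT7 and KRT19 segments overlap in size between the groups.

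By place in the genome, KRT80, KRT7, KRT81, KRT8 and KRT18 lie in the cluster on chromosome 12, and KRT10, KRT15, KRT19 and KRT17 in that on chromosome 17. The adjacent KRT8 and KRT18 both rose. KRT15 and KRT19 are adjacent, with log2 fold changes of -1.18 and -0.39, and KRT17 and KRT16 are adjacent, with 2.82 and 0.36. Differences between neighbours were not tested.

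The profiles over the 6 libraries were also compared with those of 9640 protein-coding genes averaging at least 5 CPM, by the root mean square difference of log2 CPM centred on each gene's own mean, as a description. Nearest to KRT8 were WNT10B, a Wnt ligand (0.0856), AQP3, an aquaglyceroporin (0.0965), and HSPB8, a small heat shock protein (0.105), and KRT18 stood at place 19 (0.169). Nearest to KRT18 were ARHGAP23 (0.0604), CSRP1 (0.0702) and MRPL23 (0.0710), with KRT8 at place 48. Among the nearest to KRT15 were ITGA6 (0.0559) and AMPD3 (0.0714). Nearest to KRT17 were PRSS21 (0.0847), ENG (0.0911) and PCOLCE (0.108).

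Keratin filaments are anchored at desmosomes, which join cells, and at hemidesmosomes, which hold cells to the basement membrane. Of 17 desmosome genes 13 had a row, of which 4 rose and 1 fell, with a median log2 fold change of 0.23. Over all features, 17.0% rose and 15.8% fell, with a median of -0.01, and the counts of this and the following lists are descriptions to be read against those shares. EPPK1, a plakin of keratin networks, averaged 18.9 ± 4.64 CPM in shSOX4 and 2.36 ± 0.677 CPM in shCon (SD, n = 3 each; edgeR log2 fold change 2.998, adjusted p = 2.63e-06). DSP, desmoplakin, which links keratins to the plaque, rose by 1.45 (adjusted p = 0.000377, edgeR), JUP, plakoglobin, by 1.19 (adjusted p = 0.00114, edgeR) and PKP2, plakophilin, by 1.32 (adjusted p = 0.00664, edgeR). All 4 calls held in each of the 6 fits without 1 library. The fall, that of PERP (-0.54, adjusted p = 0.0308, edgeR), passed in only 1 of these 6 fits.

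At hemidesmosomes 3 of 9 genes fell, against 15.8% of all features, and 1 rose, against 17.0%, with a median of -0.45. DESeq2 called 5 lower and 3 higher, and 5 were lower with total-count scaling. ITGA6, the integrin alpha-6 chain, averaged 11.2 ± 0.965 CPM in shSOX4 and 23.7 ± 4.07 CPM in shCon (SD, n = 3 each; edgeR log2 fold change -1.08, adjusted p = 0.00123). LAMA3, a laminin alpha chain, fell by 1.18 (adjusted p = 0.00141, edgeR). DST, dystonin, rose by 0.59 (adjusted p = 0.0344, edgeR), a call lost without shSOX4 2, shCon 1 or shCon 2, where the list held no rise. Without shCon 3, alone or with shSOX4 1, 3 rose, and without shSOX4 3, 2 rose. PLEC, plectin, which ties keratins to the hemidesmosome, had 633 ± 105 CPM in shSOX4 and 433 ± 137 CPM in shCon (log2 0.55, adjusted p = 0.0561, edgeR).

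Of 12 further genes listed as keratin-associated 2 rose and 2 fell, with a median of -0.11, near the shares of all features (17.0% higher, 15.8% lower). The list includes KRTCAP2 and KRTCAP3, whose names refer to keratinocytes, not to keratins. TRIM29, expressed in basal epithelia, averaged 8.52 ± 1.02 CPM in shSOX4 and 1.22 ± 0.608 CPM in shCon (SD, n = 3 each; log2 2.81), and PNN, pinin, rose by 0.79. KRTCAP3 fell by 1.74 (0.997 ± 0.188 CPM in shSOX4 and 3.34 ± 0.929 CPM in shCon). With an average below 1 CPM in shSOX4, KRTCAP3 had passed the table's filter through shCon. TRADD, an adaptor of tumour necrosis factor signalling that binds KRT18, fell by 0.99. Without shSOX4 2, 1 rose and 1 fell, and without shSOX4 3, 1 fell.

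Intermediate filament genes other than keratins had 14 of 16 members with a row, of which 4 rose and 5 fell (median -0.14), where 17.0% of all features rose and 15.8% fell. LMNB2, lamin B2 of the nuclear envelope, averaged 501 ± 52.2 CPM in shSOX4 and 1054 ± 155 CPM in shCon (SD, n = 3 each; edgeR log2 fold change -1.07, adjusted p = 0.000247). GFAP, a filament of glial cells, fell by 1.31, and PRPH and NEFM fell by 1.36 and 1.19. INA rose by 1.16, and BFSP1 (-0.71) and SYNM (0.70) passed with all libraries but in only 2 of the 6 fits without 1 library. VIM, vimentin, the filament of mesenchymal cells, had a log2 fold change of -0.20 (adjusted p = 0.300, edgeR) and did not pass. The neurofilament gene NEFH averaged 5.29 ± 0.798 CPM in shSOX4 and 0.463 ± 0.336 CPM in shCon, and SYNC, syncoilin, 3.22 ± 0.881 CPM in shSOX4 and 0.545 ± 0.192 CPM in shCon. NEFH and SYNC were below 1 CPM on average in shCon and had passed the table's filter through shSOX4, so they could only be found higher. Without shSOX4 2, 2 of the list rose.

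Among transcription factors and signalling genes that act on keratin genes, 25 of 34 had a row, of which 2 rose and 4 fell (median -0.20). Over all features 17.0% rose and 15.8% fell, a larger share than the 2 rises here and a like share to the 4 falls. TP63, the basal cell factor, and GRHL2 and GATA3 had no row. The AP-1 gene JUN averaged 40.8 ± 4.55 CPM in shSOX4 and 69.9 ± 2.38 CPM in shCon (SD, n = 3 each; edgeR log2 fold change -0.78, adjusted p = 0.00359). KLF4 and FOSL1 also fell, but passed in only 3 and 1 of the 6 fits without 1 library. Among the rises was ZEB2, a repressor of epithelial genes, with 2.63 ± 0.896 CPM in shSOX4 and 0.151 ± 0.213 CPM in shCon, also present in the table only through shSOX4. Leaving out shCon 1 gave 4 up and 2 down, leaving out shSOX4 3 gave 2 down, and leaving out shCon 3 together with shSOX4 1 gave 7 down.

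Markers of the luminal and basal lineages other than the keratins described included calls in both directions, where 17.0% of all features rose and 15.8% fell. Of 11 luminal markers 4 rose and 2 fell (median -0.29): STEAP4, a metalloreductase, averaged 110.1 ± 24.4 CPM in shSOX4 and 8.64 ± 2.56 CPM in shCon, and ACP3, prostatic acid phosphatase, and HOXB13 were below 1 CPM on average in shCon and had passed through shSOX4. CD24 fell by 0.65 and SLC45A3, prostein, by 0.80. The number down was 1 without shSOX4 2, shSOX4 3 or shCon 3 and 3 without both shCon 3 and shSOX4 1. Of 10 basal markers 2 rose and 2 fell (median -0.21): TRIM29 and DST were up and ITGA6 was among those down, with 1 up without shSOX4 2, shCon 1 or shCon 2. DESeq2 called 3 of the basal markers higher and 4 lower, and total-count scaling 1 higher and 3 lower. KRT14 and TP63 had no row.

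Cornified envelope genes, which mark squamous differentiation, had 6 of 24 members with a row, 2 up and 1 down (median -0.28), where 17.0% of all features rose and 15.8% fell. IVL, involucrin, averaged 8.97 ± 1.29 CPM in shSOX4 and 1.24 ± 0.0651 CPM in shCon (SD, n = 3 each; log2 2.85), and TGM1, transglutaminase of keratinocytes, rose by 1.28. S100A9, an S100 protein of inflamed epithelium and myeloid cells, averaged 0.853 ± 0.174 CPM in shSOX4 and 5.62 ± 0.342 CPM in shCon. With an average below 1 CPM in shSOX4, it had passed the table's filter through shCon, so it could only be found lower. Of 15 neuroendocrine markers 3 had a row and 1 fell, UCHL1, by 0.79.

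Few markers of other cell types had a row. Of 8 fibroblast markers 4 had a row, summing to 13.04 to 19.5 CPM in shSOX4 and 3.42 to 5.01 CPM in shCon; LUM, PDGFRB and COL1A1 rose, ACTA2 did not pass, and COL1A2, PDGFRA, DCN and THY1 had no row. LUM, PDGFRB and CDH5 averaged below 1 CPM in shCon and had passed the filter through shSOX4. Of 6 endothelial markers only CDH5 had a row (4.70 to 6.62 CPM in shSOX4 and 0.525 to 0.942 CPM in shCon), and of 6 leukocyte markers only CD68 (44.1 to 52.1 CPM in shSOX4 and 95.2 to 113 CPM in shCon). These moved with the groups as KRT8, KRT18, KRT17 and KRT15 did, and their part in those results was not tested.

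The log2 fold changes that the authors' deposited table lists are 1.28 for KRT8 (adjusted p = 6.35e-11), 0.99 for KRT18 (adjusted p = 6.73e-07), 2.69 for KRT17 (adjusted p = 1.98e-41) and -1.08 for KRT15 (adjusted p = 0.000258). The authors' deposited table gives the other 5 keratins adjusted p-values of 0.0811 to 0.952.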

How the data were processed

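RNA-seq of 6 DU145 libraries was used; the 4 ATAC-seq samples of the series were not analysed here. Columns named NC and SH with the numbers 1 to 3 were read as shCon and shSOX4. Per the file headers, the table gives deposited counts (whole numbers per gene, raw) beside deposited FPKM, which adjust for length and depth. It also carries the authors' own log2 fold change and adjusted p-value, with no tool named. Tools named by the submitters without a role are HISAT2, STAR, Bowtie2, MACS2 2.1.1 and deepTools 2.07, with the build hg19, per the submitters' processing notes; the counter and the annotation are not stated. Of the gene IDs, 12386 matched the reference's names.

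The test was edgeR's quasi-likelihood F test (version 4.0.16, R 4.3.3), two-sided, on group alone, with TMM scaling and filterByExpr, which removed none of the 13527 features. P-values were adjusted over all of them by Benjamini-Hochberg, with a threshold of 0.05. CPM are TMM-scaled, and 95% intervals come from the fit's error. Limma 3.58.1 (also as limma-voom), DESeq2 1.42.0, other scalings and filters, the replicate number as a block and each library left out were alternatives. Libraries of a group differed by chi-square values of 28.8 to 139 per degree of freedom, so none are duplicates. Members and lists were chosen with earlier results of these data known. Named genes are all keratins with a row, up to 4 members of each list with the smallest adjusted p, genes outside that rule where stated or where a count or a missing row is spelled out, and the 3 nearest profiles of KRT8, KRT18, KRT15 and KRT17 (log2 of CPM + 0.5). Promoter sequences are RefSeq's, GRCh38.p14. Some genes that this rule selects are not reported here.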

Additional observations from a re-analysis of the deposited data

How the results depend on the processing

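KRT8, KRT18 and KRT17 were called higher in all 17 alternatives run. Of 151 fold changes of the 9 keratins under alternatives, 143 kept direction and side of the threshold. The number called lower was 1 to 2 when 1 library was left out, 2 without both shCon 3 and shSOX4 1 (KRT15 and KRT81 each time), and 0 in the 3 limma fits of FPKM (pseudocount 1 or 0.1 after dropping features averaging below 1 FPKM, or pseudocount 1 unfiltered); that filter removes KRT15. Signs turned for values near 0: KRT7 ranged from -0.13 to 0.32 and KRT10 from -0.27 to 0.15 when 1 library was left out, and KRT10 was 0.0476 without both. SOX4 ranged from -1.02 to -0.71 when 1 library was left out and was -0.81, not passing, on log2(FPKM + 0.1) (limma adjusted p = 0.0557). The luminal pair less both basal types, 0.36 in CPM, was 0.206 to 0.489 when 1 library was left out and 0.0198 on log2(FPKM + 1). On that scale (limma, unfiltered) KRT15 changed by -0.40 and KRT17 by 2.80, against -1.18 and 2.82 in the main edgeR fit. The part of each in the lower value was not tested. Across all features 4431 were called, and 2509 without shSOX4 2. Of 442 list counts under alternatives 389 stayed within 1.5 times.

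Same-numbered libraries did not deviate together (correlations of -0.29, 0.16 and -0.29), while shSOX4 1 and shCon 3 did (0.495). With 3 libraries a group, such correlations depend on each other and cannot show whether the numbers pair the libraries. With the replicate block 3 keratins rose and 1 fell, and 3374 features were called. Depth limits KRT15, KRT16, KRT4 and KRT86, with counts of 23 to 261 a library.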
